A study of Schmidtea mediterranea with 5 samples.

Results

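Whole planarians that had spent 8 days in the light and then 8 days back in the dark were compared with animals taken at the end of the light exposure. The comparison covers the whole period of pigment return, with 1 library on each side of the 5 in the series. It uses the 21307 transcripts, of 82843 in the deposited table, whose mean level over the 5 libraries was at least 1 CPM (reads per 1000000 reads of its library). The ratio of 2 libraries is taken on CPM + 1 throughout, unless a ratio of CPM is named.

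Schmidtea mediterranea is a freshwater flatworm that replaces its cells from stem cells spread through the body. Its brown color comes from pigment cells under the epidermis of the back, which hold ommochrome and porphyrin pigments. Prolonged light damages these cells and the animals turn pale, and in the dark new pigment cells form from stem cells and the color returns. The title of the series names FOX and ETS family transcription factors as regulators of this lineage.

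All animals belonged to the clonal asexual strain CIW4 and were otherwise wild type. The 5 groups were control animals kept in the dark, animals after 8 days of depigmentation in the light (called the light library below), and animals that had the same 8 days of light and then 1, 2 or 8 days in the dark. Per the growth protocol the animals had gone 1 week without food, and per the design text the returned animals were starved, so longer time in the dark and longer time without food cannot be told apart. The series has a single dark control and the labels give no age for it. RNA of 3 biological replicates was mixed in equal amounts before sequencing, so each group is 1 library, the spread between animals was not measured, and no difference below has a replicate check or a p-value. The light library held 38447289 reads, the 8-day dark-return library 48002809, and the 5 libraries ranged from 38447289 to 50045371. For a transcript without reads, the upper limit of 3 reads equals 0.0599 to 0.0780 CPM. The intervals given for ratios of CPM are exact 95% intervals that cover counting error only.

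The table pairs its contig numbers with no gene name, so the marker and pigment gene lists chosen for this tissue could not be applied, and the tissue could not be checked against its markers. Transcripts are therefore described by their level, their direction and their course. Of those identified by number, SmedASXL_002843, SmedASXL_019323, SmedASXL_013874 and SmedASXL_007931 follow a rule on size and direction, and all others were singled out after their values were seen. In RNA from whole animals, fewer cells of a type and less RNA per cell cannot be told apart.

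Most of the transcriptome stood close to its level at the end of light. Of the 21307 transcripts, 18321 (86.0%) lay within 1.25-fold of the light library after 8 days in the dark. The median log2 ratio was 0.04, and the range from the 1st to the 99th percentile was -0.60 to 0.75. At least 2-fold higher after 8 days in the dark were 89 transcripts (0.418% of those compared), and 57 were at least 2-fold lower (0.268%), which makes 146 in both directions (0.685%). These 146 are called the differing transcripts below. At 1.5-fold, 425 were higher (1.99%) and 229 lower (1.07%). At 4-fold, 9 were higher (0.0422%) and 6 lower (0.0282%).

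Counting error was small beside these differences. Every one of the 89 and of the 57 had a counting interval of its CPM ratio that excluded 1. The intervals use the same reads by which these transcripts were chosen, so they are no separate check. For 71 of the 89 and 54 of the 57 the interval lay wholly past 2-fold. Just inside the threshold, 34 transcripts were 2.0- to 2.2-fold higher, and just outside it 62 were 1.8- to 2.0-fold higher. On the lower side these numbers were 12 and 27. Around the level filter, the 842 transcripts with a mean of 0.9 to 1.0 CPM held 0 that differed 2-fold in either direction. The 685 with a mean of 1.0 to 1.1 CPM held 0 higher and 2 lower. These 2 had their highest level in the light library, which enters the mean.

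The net change differed between abundance classes, which were set by the mean CPM over the 5 libraries. CPM is not divided by transcript length, so a class reflects length as well as the number of molecules. Among the 6417 transcripts at 1 to 3 CPM, 12 were higher and 12 lower, 0.374% of the class in all. The filter mean includes the light library, so a transcript high in light alone can pass it. With the filter on the control, 1-day and 2-day libraries, 89 were higher and 54 lower over all classes. Among the 4705 at 3 to 10 CPM the numbers were 26 and 13 (0.829%). The largest class, 8532 transcripts at 10 to 100 CPM, held 40 higher and 16 lower (0.656%).

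Among abundant transcripts, lower ones were somewhat more frequent at 2-fold. At 100 to 1000 CPM, 11 of 1579 were higher and 14 lower, together 1.58% of the class. Of the 74 transcripts with 1000 CPM or more, 0 were higher and 2 were lower, SmedASXL_012104 and SmedASXL_012836. Under 100 CPM the differing transcripts thus divided into 78 higher and 41 lower, and from 100 CPM up into 11 higher and 16 lower. At 1.5-fold the order was alike, with 393 higher and 177 lower under 100 CPM, and 32 higher and 52 lower from 100 CPM up. At 4-fold it was not, with 2 higher and 1 lower from 100 CPM up. With contigs of like course counted once, 4 were higher and 10 lower from 100 CPM up at 2-fold. The difference between the classes was not tested. The excess of higher transcripts under 100 CPM depended on the pseudocount: with 5 CPM in place of 1 CPM it was 20 higher and 18 lower.

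**Figure D1:**
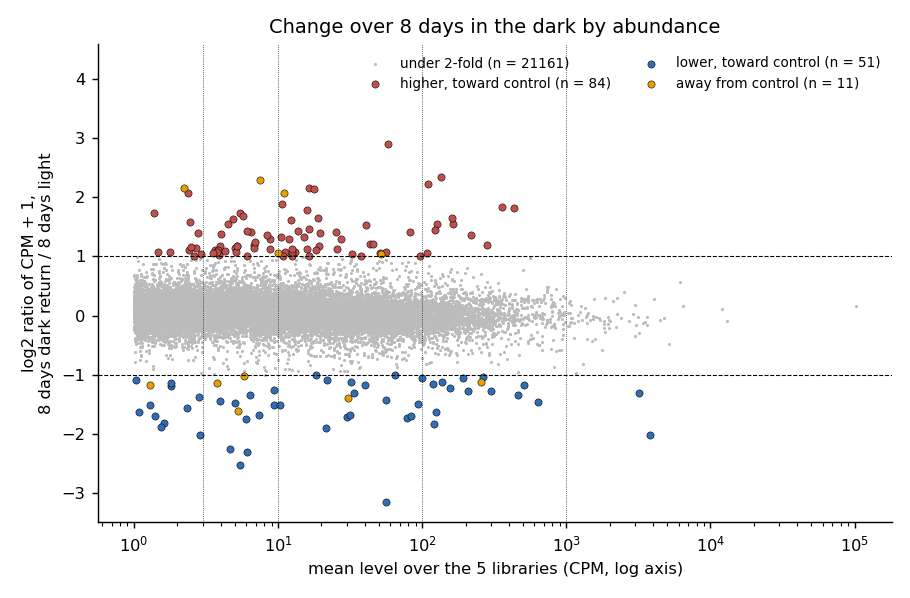
Each point is 1 of 21307 transcripts, with its mean level over the 5 libraries in CPM on a log axis and the log2 ratio of CPM + 1 between the 8-day dark-return and the light library on the vertical axis; dashed lines mark 2-fold and dotted lines the class limits. The 84 red points are higher and the 51 blue points lower in the direction of the dark control, and the 11 yellow points lie away from it.

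The medians over whole classes were above 0 in the lower 3 classes and under 0 in the upper 2. The median log2 ratio was 0.06 at 1 to 3 CPM, 0.07 at 3 to 10 CPM, 0.02 at 10 to 100 CPM, -0.01 at 100 to 1000 CPM and -0.07 from 1000 CPM up. With median of ratios scaling in place of the total they were 0.026, 0.020, -0.03, -0.07 and -0.13, and with the trimmed mean of M values 0.04, 0.04, -0.01, -0.05 and -0.11, so the sign at 10 to 100 CPM depended on the scaling. The share of a class above the light library fell from 62.0% in the lowest class and 64.7% in the next to 32.4% in the highest. Counting error cannot be neglected at the low end. The counting interval reached from its middle to either end by a median factor of 1.43 at 1 to 3 CPM, 1.20 at 3 to 10 CPM and 1.01 from 1000 CPM up.

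The pseudocount hides part of the size of low transcripts, so the ratio of CPM is given beside the counts. Among the higher transcripts its median was 3.86-fold at 1 to 3 CPM, 3.20-fold at 3 to 10 CPM, 2.36-fold at 10 to 100 CPM and 2.99-fold at 100 to 1000 CPM. Among the lower transcripts the light library stood above the 8-day library by a median of 7.37-fold in the lowest class, 3.90-fold, 2.82-fold and 2.31-fold in the next 3, and 3.26-fold for the pair in the highest. In the lowest class a ratio of CPM must be large for the ratio of CPM + 1 to reach 2-fold, so the order of these medians is partly set by the threshold.

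**Figure D2:**
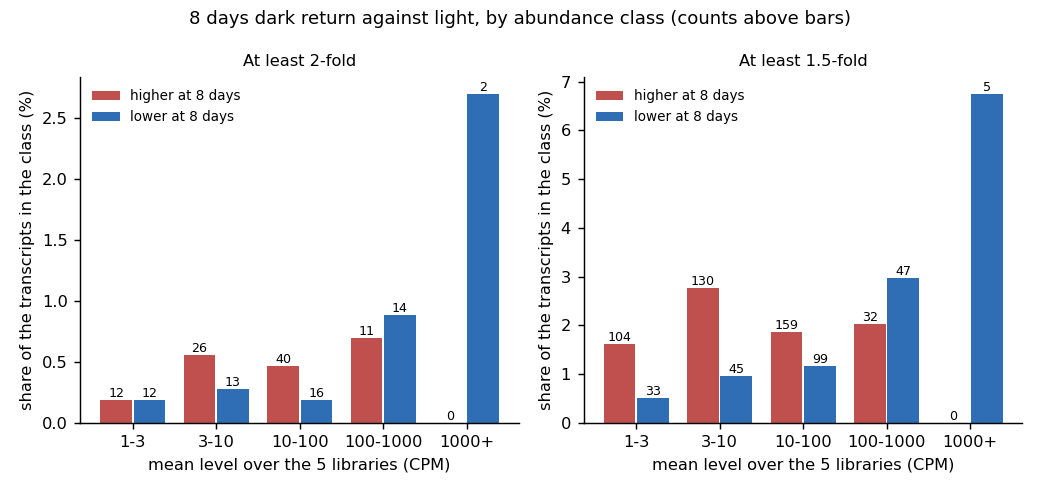
Bars give the share of each abundance class that was higher (red) or lower (blue) after 8 days in the dark than in the light library, at 2-fold on the left and 1.5-fold on the right, with the number of transcripts above each bar. Higher transcripts outnumber lower ones at 3 to 100 CPM, and lower ones outnumber higher ones from 100 CPM up. At 1 to 3 CPM the 2 directions are equal at 2-fold, while 104 are higher and 33 lower at 1.5-fold.

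Counted in reads, the picture was set by abundant transcripts. Between the light and the 8-day library, transcripts with a higher level gained 66635.7 CPM and those with a lower level lost 67361.5 CPM. The 146 differing transcripts made up 12.5% of the 133997 CPM moved in all, with 3503 CPM gained and 13248 CPM lost. Their share was 3.35% of the CPM moved at 1 to 3 CPM, 10.7% at 100 to 1000 CPM and 22.4% from 1000 CPM up. In total, 83.4% of the CPM moved went in the direction of the dark control. CPM moved past the control is included. The light library enters both the change and the side of the control, so a deviation of that library alone would add to this share. The largest single gain belonged to the most abundant transcript of the table, which went from 98013 CPM at the end of light to 109458 CPM, beside 108420 CPM in the control. This transcript alone made up 8.54% of the CPM moved while its log2 ratio was 0.16, and because CPM adds up to 1000000 in each library, its gain lowers the CPM of all other transcripts.

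SmedASXL_012104 lost the most reads. Its level was 3375 CPM in control animals and 9005 CPM at the end of light. The dark-return libraries held 2160, 2162 and 2224 CPM at 1, 2 and 8 days. The light library alone was high, and the 3 dark-return libraries lay close together under the control. The CPM in the light library was 4.05-fold that of the 8-day library (interval 4.02 to 4.08), and this transcript made up 5.06% of all CPM moved.

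SmedASXL_012836, the other transcript of the highest class, took longer. It stood at 2708 CPM in the control and 4293 CPM in the light library, then at 3683, 3519 and 1735 CPM after 1, 2 and 8 days. It was high in the light library and through 2 days of darkness, and ended under the control. The CPM in the light library was 2.47-fold that of the 8-day library.

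Each differing transcript was next placed against the dark control. A change counted as toward the control when the control lay on the side of the light library to which the 8-day library had moved. The light library enters both the change and the distance to the control, so a deviation of that library alone would count as toward. Of the 146 differing transcripts, 135 (92.5%) had moved toward the control, 84 of them higher and 51 lower. The other 11 had moved away, 5 higher and 6 lower. Some of the 135 had lain close to the control in light, so their side is weakly set. Where light was at least 1.5-fold from the control, 124 moved toward it and 6 away. Over all 21307 transcripts, 14604 (68.5%) had moved toward the control. With the light library in both terms, this share exceeds an even split even without a return, so it does not by itself show one.

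Judged on the 1-day library, which is in neither term of the ratio, 125 of the 146 moved toward the control and 21 away. Of the 11128 transcripts that differed by under 1.1-fold, 55.0% moved toward the control when judged on the 1-day library. At 1.5-fold, 592 moved toward it and 62 away. At 2-fold and judged on the light library, the share was 91.6% under 100 CPM and 96.3% from 100 CPM up. On the same terms, 22 of 24 moved toward the control at 1 to 3 CPM, 35 of 39 at 3 to 10 CPM, 52 of 56 at 10 to 100 CPM and 24 of 25 at 100 to 1000 CPM, as did SmedASXL_012104 and SmedASXL_012836.

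Judged on the light library and over both directions together, the share grew with the size of the difference up to 4-fold. That library enters both terms, so the share can rise with size even without a return. This increase therefore does not by itself show one. The share was 58.8% for the 11128 transcripts that differed by under 1.1-fold, 75.1% at 1.1- to 1.25-fold and 88.9% at 1.25- to 1.5-fold. It was 90% at 1.5- to 2-fold and 93.9% for the 131 transcripts at 2- to 4-fold. Of the 15 past 4-fold, 12 moved toward the control (80%). The directions differed among small differences, where 46.0% of the higher and 73.6% of the lower transcripts under 1.1-fold moved toward the control. From 1.1-fold up, the share of the higher transcripts was 70.6%, 90.2%, 94.3% and 97.5% up to 4-fold. For the lower ones it was 82.8%, 86.0%, 81.4% and 88.2%, which is no steady increase. The 3 past 4-fold that moved away were SmedASXL_006173, SmedASXL_001353 and SmedASXL_019323. With the side judged on the 1-day library the shares were 55.0%, 64.7%, 76.1%, 82.5%, 87.8% and 66.7% in the same order.

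**Figure D3:**
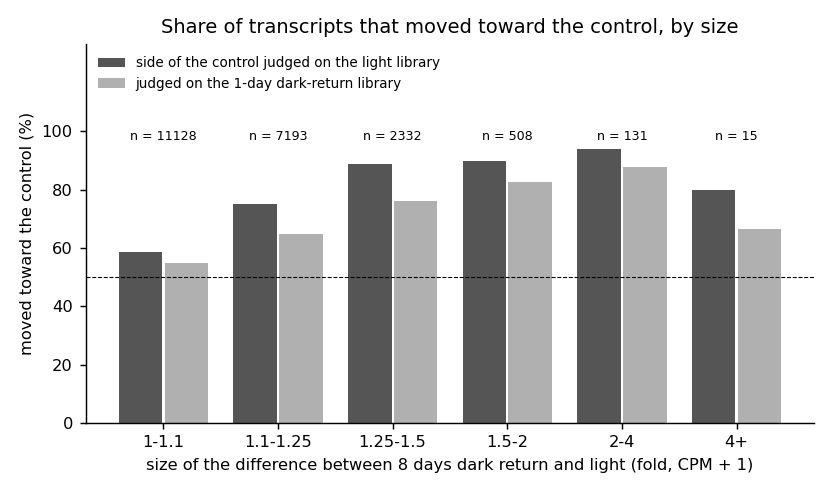
Bars give the share of transcripts that moved toward the dark control, by the size of the difference between the 8-day dark-return and the light library (fold on CPM + 1), with the side of the control judged on the light library (dark) or on the 1-day library (light); the dashed line marks 50% and n is the number of transcripts. Over both directions together, the share is 58.8% in the smallest size group and 93.9% at 2- to 4-fold when judged on the light library. The light library enters both terms of the dark bars, so 50% is not their level without a return.

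The distance to the control shrank in each abundance class. The mean absolute log2 ratio to the control over all 21307 transcripts was 0.285 in the light library and 0.232 after 8 days in the dark, which is 81.2% of the light distance. The remaining share was 83.0% at 1 to 3 CPM, 84.8% at 3 to 10 CPM, 80.1% at 10 to 100 CPM, 71.8% at 100 to 1000 CPM and 77.6% from 1000 CPM up. Nearer to the control than in the light library were 12652 transcripts (59.4%). Both distances share the control library, and counting error adds more to the distance of low transcripts. The light library held the fewest reads, so counting error also adds more to its distance than to that of the 8-day library.

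The 135 that moved toward the control did not all stop at it. Between the light and the control level 70 stopped short, 50 passed the control but ended nearer to it than in light, and 15 passed it and ended farther away, so 120 ended nearer. Of the 84 higher ones, 49 stopped short and 35 passed the control, and of the 51 lower ones 21 stopped short and 30 passed it. A transcript under 2-fold from the control in light must pass it to move 2-fold toward it. These counts are therefore partly set by the threshold. The median levels of all 89 higher transcripts were 17.5 CPM in the control, 5.62 CPM in light, 7.01 and 8.03 CPM at 1 and 2 days, and 15.3 CPM at 8 days. For the 57 lower ones they were 13.5, 31.3, 25.6, 29.3 and 11.2 CPM. After 8 days 51 of the 89 and 29 of the 57 stood within 1.5-fold of the control. A level this near to the control was common. Over all transcripts compared, the median absolute log2 ratio to the control was 0.223 in light and 0.176 after 8 days, both well inside 1.5-fold. The share of all transcripts within 1.5-fold was not counted. The counts within 1.5-fold given here and below therefore have no background, and do not by themselves show a completed return.

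The higher transcripts included a set that had been far under the control in light and had come back in part. For 24 of the 84 that moved toward the control, the light level was at least 4-fold under the control. Their median level was 29.1 CPM in the control, 0.845 CPM in light and 4.17 CPM after 8 days, or 8.95% of their own control level in light and 32.8% after 8 days. The median share of the way back on the log2 scale was 45.6%, and 20 of the 24 were still at least 2-fold under the control. The other 60, which had been less than 4-fold under the control, went from a median of 38.5% of the control level to 104%, and 49 of them ended within 1.5-fold of it. A transcript less than 4-fold from the control that changes at least 2-fold must cover at least 50% of the way, so the shares of the way of these 2 sets are not compared with each other.

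SmedASXL_002843 was the transcript of the first set with the greatest ratio. It had 262 CPM in the control and 1.40 CPM in light, then 3.31, 4.64 and 17.0 CPM at 1, 2 and 8 days. Each library in the dark was above the one before, and all 4 light-exposed libraries were far under the control. The log2 ratio of the 8-day to the light library was 2.90, and the ratio of CPM was 12.1-fold (interval 9.16 to 16.2). This covered 42.8% of the way back on the log2 scale, and the control was still 15.4-fold above the 8-day library. SmedASXL_020150 belongs to the same set, with 77.8 CPM in the control. It had 1 read in light, then 29, 4 and 172 reads at 1, 2 and 8 days, so its course was not steady. Its 138-fold ratio of CPM has a counting interval of 24.4- to 5473-fold.

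Among the 51 lower transcripts that moved toward the control, 12 had been at least 4-fold over it in light. Their median level was 9.26 CPM in the control, 55.5 CPM in light and 16.4 CPM after 8 days, and 5 of them were still at least 2-fold over the control, while 4 were within 1.5-fold. The other 39 had a median of 221% of their control level in light and 74.7% after 8 days, with 25 within 1.5-fold of the control. SmedASXL_013874 had the greatest ratio of all lower transcripts, with 8.51 CPM in the control and 111 CPM in light, then 79.6, 68.4 and 11.5 CPM at 1, 2 and 8 days. The light library and both early libraries were high, and the 8-day library was near the control. The log2 ratio was -3.16, and the CPM in light was 9.62-fold that of the 8-day library (interval 8.80 to 10.5).

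**Figure D4:**
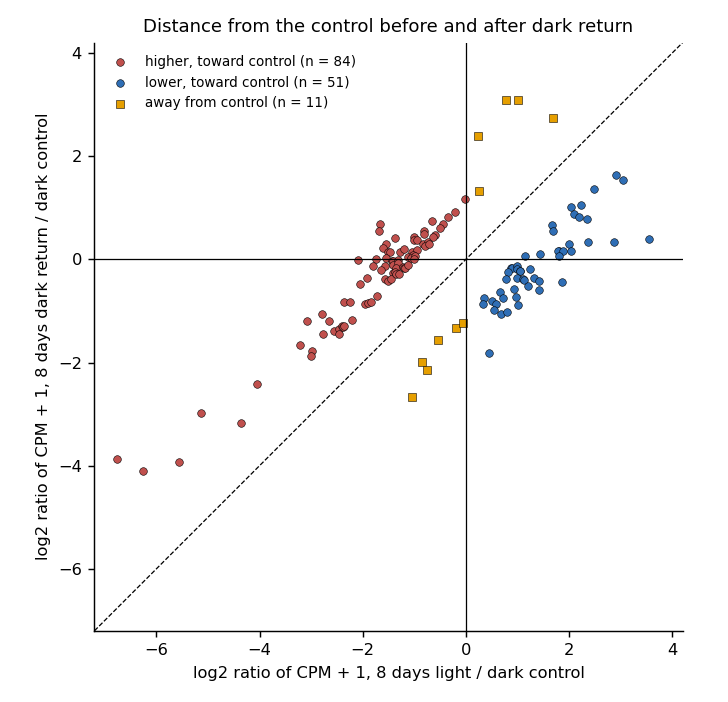
Each point is 1 of the 146 differing transcripts, placed by its log2 ratio of CPM + 1 to the dark control in the light library (horizontal) and in the 8-day dark-return library (vertical); on the dashed diagonal nothing changed, and on the horizontal line at 0 the control level was reached. The 84 higher transcripts (red) and 51 lower ones (blue) moved toward the control, those lowest in light still lie well under the line at 0, and the 11 squares moved away.

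Some transcripts passed the control. Among the 84 higher ones that moved toward it, 20 went more than 125% of the way, as did 22 of the 51 lower ones. A transcript close to the control in light must go far past it to reach the threshold. These counts, and those that ended farther away, are therefore partly set by the threshold. SmedASXL_011484 stood at 187 CPM in the control and 58.6 CPM in light, then at 60.0, 69.5 and 300.4 CPM. The 3 libraries before 8 days were low and the 8-day library was the highest of the 5. Its CPM was 5.13-fold that of the light library (interval 4.90 to 5.36) and 1.60-fold that of the control. Of the 15 that ended farther from the control than in light, 6 were higher and 9 were lower. The 6 higher ones had median levels of 2.77 CPM in the control, 2.17 CPM in light and 6.37 CPM after 8 days, and the 9 lower ones 6.93, 10.5 and 3.04 CPM.

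In 5 transcripts the 8-day level was higher than in light and farther from the control, which by definition lay under the light level. SmedASXL_019323 stood at 2.30 CPM in the control, 5.64 CPM in light, and 6.11, 14.2 and 27.0 CPM after 1, 2 and 8 days. Its log2 ratio of the 8-day to the light library was 2.08, with a CPM ratio of 4.78-fold (interval 4.14 to 5.55). SmedASXL_006173 had 1.54 CPM in the control, 3.36 CPM in light, and then 4.57, 7.69 and 20.5 CPM. The levels of both were in the order of time in the dark.

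SmedASXL_001353 was the least abundant of the 5, at 0.429 CPM (19 reads) in the control and 0.676 CPM (26 reads) in light, then 0.839, 2.66 and 6.48 CPM. Its CPM ratio of 9.58-fold has a counting interval of 6.41 to 14.9. SmedASXL_005778 differed less, with 6.07 CPM in the control, 7.49 CPM in light, and 8.79, 11.2 and 16.6 CPM after 1, 2 and 8 days. In these 2, too, the levels were in the order of time. SmedASXL_012058 had been farthest above the control in light, at 47.4 against 14.0 CPM. It then stood at 43.2, 54.3 and 98.6 CPM, so the 1-day library was not above the light library. After 8 days the 5 were between 2.74-fold (SmedASXL_005778) and 15.1-fold (SmedASXL_001353) over the control in CPM.

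The median level of the 6 transcripts that were lower and had moved away was 10.1 CPM in the control, 5.36 CPM in light and 1.95 CPM after 8 days. By definition these lay under the control in light. In the least abundant of them that side rests on 68 reads in light and 84 in the control. SmedASXL_007931 stood at 53.2 CPM in the control, 31.3 CPM both in light and after 1 day, then 26.0 CPM at 2 days and 11.3 CPM at 8 days. Its log2 ratio was -1.39, and the CPM in light was 2.77-fold that of the 8-day library (interval 2.50 to 3.07). SmedASXL_004189, the most abundant of the 6, had 448 CPM in the control, 247 CPM in light, and 240, 222 and 112 CPM after 1, 2 and 8 days. SmedASXL_019168 had 10.99 CPM in the control, 4.79 CPM in light, 4.15 and 5.42 CPM after 1 and 2 days, and 0.896 CPM (43 reads) after 8 days. In all 3 the 1-day and 2-day libraries were much nearer to light than the 8-day library was.

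Levels at 1 and 2 days were set beside the differences at 8 days. All ratios share the light library. The transcripts were chosen on the 8-day ratio, so a deviation of the 8-day library alone would make the shares at 1 and 2 days small. When the differences arose was not tested. The 89 higher transcripts had a median log2 ratio to light of 0.35 after 1 day, 0.50 after 2 days and 1.21 after 8 days. The 57 lower ones had medians of -0.34, -0.46 and -1.43. By 2 days, 15 of the 89 had made under 10% of their log2 change at 8 days, 40 had made 10% to 50%, 24 had made 50% to 90% and 10 at least 90%. Of the 57 lower transcripts these numbers were 13, 26, 11 and 7.

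Among the abundant higher transcripts, some had not changed by 2 days. The 11 contigs at 100 to 1000 CPM had made between -14.3% and 66.6% of their 8-day change by then, with a median of 7.84%, against medians of 42.3%, 41.5% and 46.6% in the classes at 1 to 3, 3 to 10 and 10 to 100 CPM. The low median rests on contigs of like course. The 11 form 5 profiles, of which 1 held 5 contigs (-14.3% to -0.77%) and another 2 contigs (7.84% and 10.3%), while the remaining profiles had made a median of 28.2%, 37.7% and 66.6%. With 1 value per profile the median was 28.2%. SmedASXL_010535 stood at 698 CPM in the control and 228 CPM in light, then at 205, 220 and 811 CPM. SmedASXL_073532 had 557 CPM in the control and 190 CPM in light, then 173, 188 and 685 CPM. In both, the light and the early libraries were low and close together, and the 8-day library was above the control. Their CPM ratios of the 8-day to the light library were 3.56-fold (interval 3.47 to 3.64) and 3.60-fold (3.51 to 3.70).

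A few transcripts had changed early, and a deviation of the light library alone would look the same. At least 90% of the change was made by 1 day in 4 of the 89 higher and 6 of the 57 lower transcripts. The 6 lower ones had a median of 78.7 CPM in light, then 25.4, 22.5 and 31.4 CPM, against 28.7 CPM in the control. SmedASXL_012104 is the most abundant of them. The 13 lower transcripts with under 10% of their change by 2 days had medians of 24.7 CPM in light, then 24.3, 29.3 and 7.15 CPM, with 14.1 CPM in the control.

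**Figure D5:**
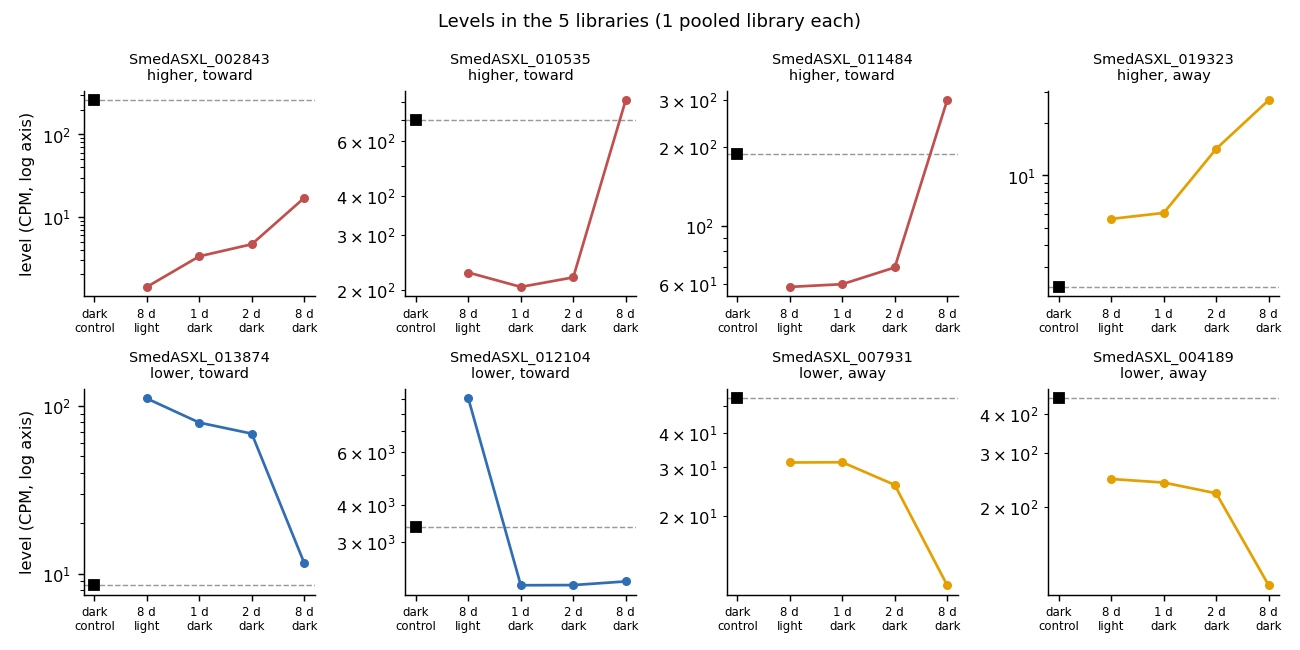
Level in CPM, on a log axis that differs between panels, of 8 transcripts in the 5 libraries, with the dark control as a square and a dashed line and the other libraries in the order of the experiment; 1 pooled library each, so no error bars. Upper row: SmedASXL_002843 is still under the control after 8 days, SmedASXL_010535 and SmedASXL_011484 are over the control at 8 days and low in the 3 libraries before, and SmedASXL_019323 moves away. Lower row: SmedASXL_013874 ends near the control, SmedASXL_012104 is down by 1 day, and SmedASXL_007931 and SmedASXL_004189 move away.

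Not all contigs are independent. Of the 146 differing transcripts, 49 fell into 11 groups whose levels, each divided by its own mean over the 5 libraries, were within 10% of another member in every library. The largest group held 17 higher transcripts. SmedASXL_010535 and SmedASXL_073532 were in 1 group of 6, and SmedASXL_011484 had 1 contig of like course beside it. Contigs of 1 gene, or contigs that share reads, would give such groups, as would genes of like course, and these were not told apart. With each group counted once there were 59 higher and 49 lower profiles.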

How the data were processed

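RNA of 5 groups of whole animals, 1 pooled library each, was measured. Per the labels' protocols, libraries were poly(A)-selected TruSeq libraries. The series' design text gives 50-base single reads, trimmed by 15 bases and aligned with bowtie2 to the SmedASXL transcriptome. The versions, per the submitters' processing notes, were 1.8.3 for bcl2fastq and 2.2.4 for Bowtie2. For reads with several matches and for strand, the settings are not given in the sources used here. The protocol text on treatment describes RNA interference and amputation and was not used.

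The deposited signal is CPM + 1 per the file headers. Subtracting 1 gave columns summing to 1000000, and whole reads per transcript followed from the smallest step, which served for intervals only. The deposited ratio column, the authors' ratio of control to light, equalled the quotient of both columns and was not used further; 0 columns of sample values were left out.

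Ratios used log2(CPM + 1), a mean of at least 1 CPM and a threshold of 2-fold; with a pseudocount, ratios understate the differences of low transcripts. Intervals are Clopper-Pearson (conditional binomial) for 2 libraries; repeated copies of a molecule could not be removed. The share of the way back is the log2 change divided by the log2 distance of control from light. A count test was not possible, since 1 library per group leaves no residual degrees of freedom. Members, classes, lists and rules were chosen with earlier results of these data known. The naming rule took, among transcripts averaging 10 CPM or more, the greatest log2 ratio in each of 4 classes (higher or lower, toward or away). Gene lists for cell types and pigment synthesis were not used, as no names were paired with contigs. The calculation was tested on simulated data. Alternatives were other pseudocounts, filters, thresholds, scalings and judgements of side. Python 3.11.15, numpy 2.4.6, pandas 2.3.3, scipy 1.17.1 and matplotlib 3.10.9 were used.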

Additional observations from a re-analysis of the deposited data

Results flagged for a closer look

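3 of the transcripts identified above had ratios to the light library of opposite sign at different times in the dark, with both counting intervals excluding 1. The log2 ratio of SmedASXL_073532 was -0.14 after 1 day and 1.84 after 8 days. That of SmedASXL_010535 was -0.15 at 1 day, -0.051 at 2 days and 1.83 at 8 days. That of SmedASXL_012058 was -0.13 after 1 day and 1.04 after 8 days. SmedASXL_073532 and SmedASXL_010535 were in the same group of like course, so they may not be separate cases. The early ratios were small, and the intervals cover counting error only. Over animals this difference in time was not tested.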

How the results depend on the processing

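No paired analysis was possible because the labels give 1 pooled library per condition, and no library could be left out of a group for the same reason. With a pseudocount of 0.1 CPM there were 200 higher and 87 lower transcripts, 270 toward the control and 17 away, and under 100 CPM 189 higher and 71 lower. With 5 CPM these were 31, 34, 60, 5, 20 and 18, so higher transcripts no longer outnumbered lower ones over all classes. Restricted to means of 10 CPM or more, they were 51, 32, 78, 5, 40 and 16. With the filter on the control, 1-day and 2-day libraries they were 89, 54, 132, 11, 78 and 38. At 1.5-fold they were 425, 229, 592, 62, 393 and 177, and at 4-fold 9, 6, 12, 3, 7 and 5. From 100 CPM up there were 32 higher and 52 lower at 1.5-fold, and 2 and 1 at 4-fold. Judged on the 1-day library 125 moved toward the control and 21 away. Where light was at least 1.5-fold from the control, 124 moved toward it and 6 away. With like profiles counted once, an alternative chosen after seeing the data, 59 were higher, and from 100 CPM up 4 were higher and 10 lower, each group being placed by its contig with the highest log2 ratio.

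Scaling by the trimmed mean of M values shifted the median log2 ratio by -0.03 and gave 81 higher and 61 lower (57.0% higher). Scaling by the median of ratios shifted it by -0.05 and gave 76 and 62 (55.1%), against 61.0% as reported. The mean distance to the control in light and after 8 days was 0.345 and 0.278 with 0.1 CPM, 0.198 and 0.160 with 5 CPM, 0.286 and 0.226 with the trimmed mean, and 0.288 and 0.225 with the median of ratios. The distance after 8 days was 78.2% to 81.2% of that in light under all 5 settings. None of the 64 log2 ratios of the 16 transcripts identified by number, under 4 settings of pseudocount and scaling, reversed, but 22 of them moved by more than the width from middle to end of their counting interval. With 5 CPM, SmedASXL_005778 (0.79), SmedASXL_012058 (0.98), SmedASXL_019168 (-0.73) and SmedASXL_020150 (0.77) were under 2-fold, as was SmedASXL_012058 with the median of ratios (0.98). The cause of these shifts was not tested. At 1 to 3 CPM the depth limits ratios to a median factor of 1.43.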
